A study of Homo sapiens with 2 samples.

Results

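Chromosome 22 held 1714 of the 46208 places where tagged TET1 was enriched over input chromatin in human cardiac progenitors, which is 3.71% of the authors' peak list. All peaks on that chromosome were taken, with positions on hg19 counted from 1. The chromosome was chosen by its number of peaks per gene, the highest of the autosomes, and for that reason its counts, and the widths, scores and gaps of the same peak call, are given as a description without a test. The cells came from H1, an established human embryonic stem cell line. Per the series' design text its own TET1 gene had been tagged with V5, although the genotype label of both libraries is wild type. They were taken on day 7 of a monolayer differentiation towards heart, after CHIR99021, which activates WNT signalling (6 µM, until day 2), and IWP2, which inhibits it (5 µM, day 3 to day 5), and no further treatment preceded fixation. There was 1 V5 ChIP library and 1 input library of the same stage, so no value has a replicate behind it, and the read depth of both libraries is unknown. The series lists no V5 ChIP of untagged cells, so TET1 and other antibody signal cannot be told apart.

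TET1 oxidises methylated cytosine, the first step of active DNA demethylation, and its CXXC domain binds CpG-rich DNA. Chromosome 22 is a small acrocentric chromosome, rich in genes and in G and C, whose short arm consists of repeats. The upper long arm holds low-copy repeats, large duplicated blocks that recombine with each other. The deletion between them causes DiGeorge syndrome, with malformations of the outflow tract of the heart, and TBX1, a T-box transcription factor of the second heart field, lies in the deleted region. Farther along lies the immunoglobulin lambda locus, made of V, J and C segments. A V and a J segment are joined and transcribed with a C segment in B cells and not in heart cells.

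Each peak carries a score by the authors, here used only to describe and rank peaks within the list. Scores on chromosome 22 began at 50.02. Scores of 3100 or more are here called the ceiling, since 55 chromosome 22 peaks carry exactly 3100 and 5 lie above it, up to 3206.08. Annotation of hg19 was not used here, so peaks are not assigned to genes, and mapping of reads in repeated sequence was not examined.

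The peaks ran from 16867122 to 51223540, at 49.9 peaks per Mb (95% Poisson interval 47.6 to 52.3). That was the second highest density of the 22 autosomes, after chromosome 19 with 57.3. Together the peaks covered 9.85% of the stretch, against an autosome median of 3.46%. No gap on chromosome 22 passed 1 Mb. Its longest, 510 kb, was the shortest longest gap of any autosome, the next being 1303 kb on chromosome 15. All peaks of chromosome 22 lie on the long arm, so none of its gaps spans a centromere. On chromosomes with peaks on both arms a gap must span it, so this rank does not compare like with like.

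In steps of 500 kb from the centromere to the q end, all 70 steps held a peak, with a median of 22 (quartiles 13 and 36). Of these, 40 steps (57.1%) held 20 peaks or more and 15 held 40 or more. The fullest was 50.5 to 51 Mb near the q end, with 67 peaks (Poisson interval 51.9 to 85.1), 5 of them at the ceiling, covering 33.2% of the step. Next came 37.5 to 38, 39.5 to 40 and 42.5 to 43 Mb with 55 each, and 20 to 20.5 Mb with 53. These full steps were unlike in strength: the median score was 242 at 39.5 Mb, with 12 peaks of 1000 or more, and 109 at 42.5 Mb, with 4 such peaks and 27 of the 55 below a score of 100. A full step was thus made of strong peaks in one place and of weak ones in another.

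**Figure D1:**
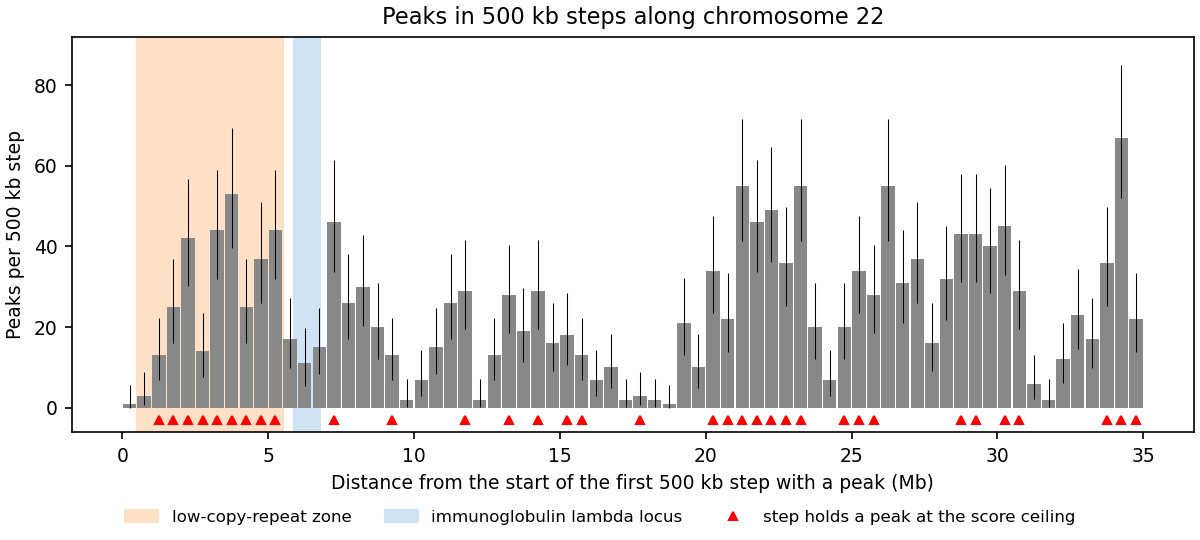
Number of peaks in each of the 70 steps of 500 kb along chromosome 22 (bars, with 95% Poisson intervals as lines), against distance in Mb from the start of the first step with a peak. Shading marks the low-copy-repeat zone and the immunoglobulin lambda locus, and triangles the 34 steps that hold a peak at the score ceiling. Counts run from 1 to 67, with a trough of 4 neighbouring steps near the middle.

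Peak-poor steps lay between these blocks. The steps from 16.5 and from 35 Mb held 1 peak each, and those from 26, 28.5, 33.5, 34.5 and 48 Mb held 2 each. In all, 9 steps (12.9%) held 3 or fewer. The longest poor stretch, picked after the counts were seen, ran from 33.5 to 35.5 Mb with 8 peaks, or 4 per Mb (1.73 to 7.88). Of these 8, 7 scored between 55.15 and 127.17. The other one, from 34315177 to 34319301, was 4125 bp wide and at the ceiling. A further poor stretch from 47.5 to 48.5 Mb also had 8 peaks, none above a score of 220.99. The 5 longest gaps were in or next to such steps: 34951754 to 35461288 (510 kb), 48014832 to 48492546 (478 kb), 47565841 to 48013728 (448 kb), 17084013 to 17516960 (433 kb) and 26158875 to 26564791 (406 kb).

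The low-copy-repeat zone, set at 17 to 22 Mb, held 300 peaks, or 60 per Mb (53.4 to 67.2). Its name stands for this window only, since no peak was placed inside or outside a repeat. The stretch beyond the immunoglobulin lambda locus, which ends at 23270000, to the last peak held 1382 over 27.95 Mb, or 49.4 per Mb (46.9 to 52.1). The zone was thus 1.21-fold denser (exact binomial interval 1.07 to 1.38, counting error only). By length covered the ratio was larger, 1.41, since 13.4% of the zone and 9.50% of the later stretch lay under peaks. The zone itself began nearly empty: its first 500 kb held 3 peaks with scores from 53.39 to 56.14. From 18 Mb on it had 71 peaks per Mb. That cut was set after the counts were seen and also leaves out the 13 peaks from 17.5 to 18 Mb.

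Peaks at the ceiling were spread along the repeat zone. It held 16, which is 3.20 per Mb (1.83 to 5.20), against 44, or 1.57 per Mb (1.14 to 2.11), beyond the lambda locus, a ratio of 2.03 (1.07 to 3.67). Of its 10 steps, 9 held at least 1 ceiling peak, namely every step from 17.5 to 22 Mb. Of the 56 steps from 23.5 Mb to the end, 25 did. As a share of peaks, 5.33% of the zone (Wilson interval 3.31% to 8.49%) and 3.18% of the later stretch (2.38% to 4.25%) stood at the ceiling, intervals that overlap. The median score was 166 in the zone and 149 beyond it. The share of the whole chromosome at the ceiling was 3.50% (2.73% to 4.48%), the lowest of the 22 autosomes, against 4.69% over the whole list. Chromosome 22 thus combined a high density of peaks with a low share of them at the ceiling.

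The zone also had wide peaks. Its median width was 1736 bp (quartiles 1216 and 2746) against 1495 bp (1068 and 2316) beyond the lambda locus. Within classes of score the medians of the zone and the later stretch were 1063 and 992 bp from 50 to 100, 1570 and 1510 bp from 100 to 300, and 2669 and 2369 bp from 300 to 1000, then 2993 and 3088 bp from 1000 to 3100 and 4513 and 4852 bp at the ceiling. The zone had the larger median in each class below a score of 1000 and the smaller one in both classes above it. The widest peak of the zone, from 19741045 to 19755433, spanned 14389 bp at the ceiling and was the second widest of the chromosome. Another, from 21863282 to 21873071 (9790 bp), and one from 20420150 to 20428976 (8827 bp) were at the ceiling too.

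Some wide peaks had low scores. Of the 1714 peaks, 70 (4.08%, 3.25% to 5.13%) were 5 kb or wider, against 3.20% of the whole list, and 15 of these scored below 1000. Such wide and weak peaks made up 0.875% of the chromosome (0.531% to 1.44%) and 0.452% of the list. Chromosome 21 had 8, or 1.29% of its peaks (0.655% to 2.53%), so the trait was not particular to chromosome 22. The repeat zone held 6 of the 15, or 2.00% of its peaks (0.920% to 4.29%). The stretch beyond the lambda locus held 8, or 0.579% (0.294% to 1.14%), and the 2 intervals overlap. The lowest-scoring pair were neighbours, from 18832220 to 18837447 (5228 bp, score 234.32) and from 18837570 to 18847614 (10045 bp, score 334.1). Another 3 of the 6 lay between 20159222 and 20235419, with widths of 5333, 6779 and 7822 bp and scores of 524.33, 994.17 and 464.31. Wide peaks of low score thus made up a larger share of the zone than of the list, on counts of 6 and 209.

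**Figure D2:**
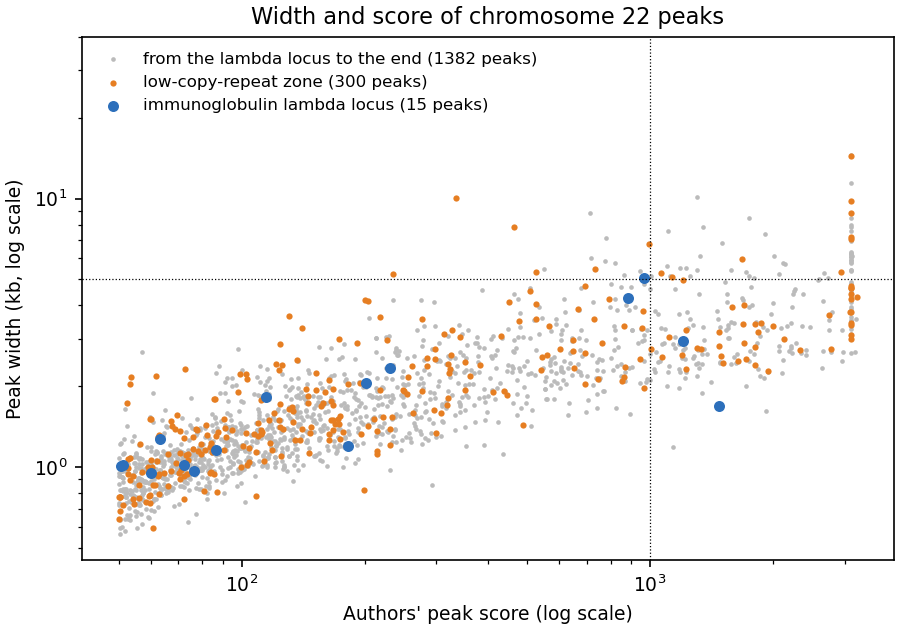
Width in kb against the authors' score, both on log scales, for the peaks of the low-copy-repeat zone (300), the immunoglobulin lambda locus (15) and the stretch from that locus to the end (1382). Dotted lines mark 5 kb and a score of 1000. Width rises with score in the repeat zone and the later stretch, while the highest-scoring peak of the lambda locus is 1687 bp wide, and 6 peaks of the repeat zone lie in the upper left field of wide and weak peaks.

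The immunoglobulin lambda locus, from 22380001 to 23270000, held 15 peaks, or 16.9 per Mb (9.43 to 27.8). This was 0.281 times the density of the repeat zone (0.155 to 0.471) and 0.341 times that of the stretch beyond (0.190 to 0.564). With the boundaries moved 250 kb towards the q end the locus held 27 peaks, or 30.3 per Mb, which is outside that counting interval. Within the boundaries as set, none was at the ceiling, where a count of 0 among 15 allows a share of up to 20%. Scores ran from 50.62 to 1476.50 with a median of 115, and 7 of the 15 (46.7%, Wilson interval 24.8% to 69.9%) were below 100. That interval holds the shares of the whole chromosome, 34.7%, and of all autosomes, 33.1%. Of the peaks of 300 or more, 2 stood apart, from 22651141 to 22654090 (2950 bp, score 1204.68) and from 22862041 to 22863727 (1687 bp, score 1476.50). The other 2 belonged to a group of 7 peaks within 25.1 kb, from 22971779 to 22996913, with scores of 882.63, 63.24, 114.94, 201.99, 60.16, 182.62 and 964.73 from the centromere side on. So 7 of the 15 peaks shared 2.82% of the locus, and its longest empty interval was 224 kb. Between the repeat zone and the locus, from 22 to 22.38 Mb, lay 16 peaks at 42.1 per Mb (24.1 to 68.4).

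The gene table, which is on GRCh38, was used only for gene numbers and gene order. On that order the lambda segments (37 V segments, 7 J segments, 4 C regions and 36 V pseudogenes) are interleaved with 6 protein-coding genes. These are VPREB1 and IGLL5, which encode proteins of the immunoglobulin light chain kind, PRAME, an antigen of testis and tumours, the zinc finger genes ZNF280A and ZNF280B, and GGTLC2. The 83 protein-coding genes before the locus, from OR11H1 to TOP3B, stood against 317 peaks before 22.38 Mb, or 3.82 peaks per gene (3.41 to 4.26). The 350 genes after it, from RSPH14 to RABL2B, stood against 1382 peaks, or 3.95 per gene (3.74 to 4.16). The ratio was 0.967 (0.853 to 1.09). The locus itself had 2.50 per gene (1.399 to 4.12).

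For the chromosome as a whole, 439 protein-coding genes of the table lie on its main sequence, which gives 3.90 peaks per gene (3.72 to 4.09). Another 12 entries of chromosome 22 lie on extra scaffolds, and with them the value was 3.80. The next autosome was chromosome 16 with 2.91 (2.80 to 3.03), and the autosome median was 2.44. Chromosome 21 had 620 peaks and 238 genes, or 2.61 (2.40 to 2.82), so chromosome 22 had 1.499 times as many per gene (1.37 to 1.65). That ratio depended on the genes counted. Chromosome 21 carries 49 keratin-associated protein genes, short genes of hair that stand in clusters, and chromosome 22 carries none. Without them chromosome 21 had 3.28 peaks per gene (3.03 to 3.55) and the ratio fell to 1.19.

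Chromosome 21, the other small acrocentric autosome, had 28.1 peaks per Mb (25.97 to 30.4) after its 6 gaps over 1 Mb, 16.65 Mb in all, were left out. Chromosome 22 was 1.77 times as dense (1.62 to 1.95). The ratio differed along the chromosome. In the 5 Mb before the last peak, a window chosen after seeing the data, chromosome 21 held 412 peaks, or 82.4 per Mb (74.6 to 90.8), and chromosome 22 held 292, or 58.4 per Mb (51.9 to 65.5), a ratio of 0.709 (0.608 to 0.825). In the last 10 Mb the ratio was 1.31 (1.16 to 1.48) and in the last 20 Mb 1.81 (1.64 to 2.01), both higher on chromosome 22. Outside the last 5 Mb chromosome 22 had 48.4 per Mb (45.95 to 51.02) and chromosome 21 had 12.2 (10.6 to 14.0), a ratio of 3.97 (3.43 to 4.61). The last 5 Mb thus held 66.5% of the peaks of chromosome 21 and 17.04% of those of chromosome 22.

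**Figure D3:**
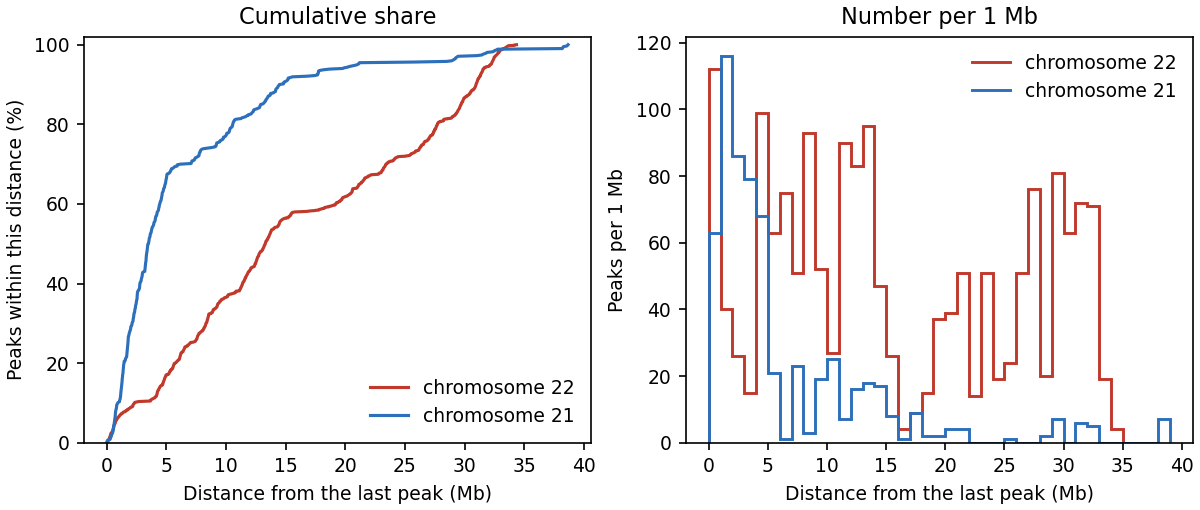
Left, cumulative share of the peaks of chromosome 22 (1714) and chromosome 21 (620) with distance in Mb from the last peak. Right, number of peaks in each 1 Mb from the last peak backwards. Chromosome 21 has 66.5% of its peaks in the last 5 Mb and chromosome 22 has 17.04%, while chromosome 22 stays peak-rich over most of its length.

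The same contrast stood in the 500 kb steps. On chromosome 21, 27 of 79 steps held no peak and the median step held 2. These steps begin at 9 Mb and include the 6 gaps over 1 Mb that the density left out. The longest of these, from 9927681 to 15351739, spans the centromere, while the steps of chromosome 22 begin beyond its own. Step counts and shares of steps are thus not like for like between the 2 chromosomes. The fullest steps of chromosome 21, from 46.5 (63 peaks), 44.5 (55), 46 (54), 45.5 (50) and 47 Mb (39), all lay between 44.5 and 47.5 Mb. The fullest steps of both chromosomes were similar, 63 and 67 peaks, but 4 steps of chromosome 21 held 40 or more, against 15 of chromosome 22. Only 7 of its 79 steps (8.86%) were needed to hold 52.9% of its peaks, where chromosome 22 needed 19 of 70 (27.1%) for 50.9%.

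The peaks themselves were alike on both chromosomes. Median width was 1518 bp on chromosome 22 and 1511 bp on chromosome 21, and both median scores were 152. Below a score of 100 lay 34.7% (32.5% to 37%) and 36.5% (32.8% to 40.3%). At the ceiling the widths were apart, with a median of 4687 bp for the 60 peaks of chromosome 22 and 3491 bp for the 26 of chromosome 21, the third highest and the lowest of the autosomes.

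Gaps on chromosome 22 had a median of 6559 bp (quartiles 1810 and 18060), against 8281 bp (2211 and 30619) on chromosome 21 and 12779 bp over all autosomes. Chromosomes 19, 16 and 17 had shorter medians, 5341.5, 5921 and 6414 bp. Of the 1713 gaps of chromosome 22, 1042 (60.8%) were up to 10 kb, against 55.3% on chromosome 21 and 45.4% over all autosomes. Over 100 kb were 50 (2.92%), against 9.85% on chromosome 21 and 13.8% over all autosomes. The repeat zone and the later stretch had like medians, 6920 and 6318 bp. In the lambda locus the median gap was 22627 bp, and 4 of its 14 gaps passed 100 kb. Only 13 peaks of chromosome 22 had their nearest neighbour over 100 kb away. Their median width was 1087 bp and their median score 82.55. None was at the ceiling, but with 3.50% of all chromosome 22 peaks there, 13 peaks are too few to tell. Among the 13, 3 were wide and high-scoring, with 2595 bp at 1494.73, 2438 bp at 1479.8 and 2345 bp at 890.26. On chromosome 21, 26 peaks were as isolated, with a median score of 273. Of them 3 (11.5%) were at the ceiling, against 4.19% of all its peaks.

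**Figure D4:**
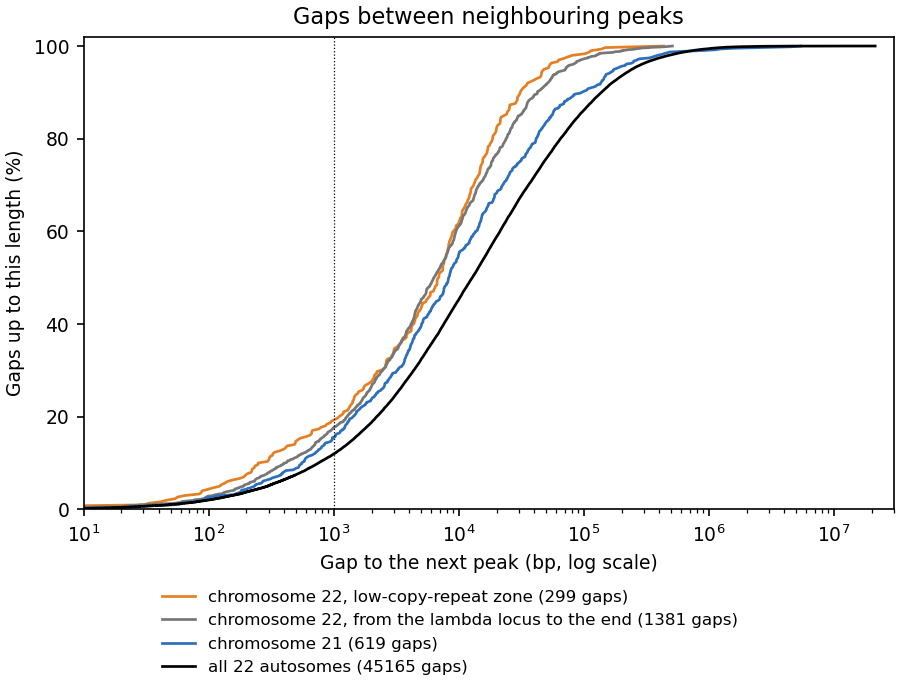
Cumulative share of gaps between neighbouring peaks up to a given length in bp (log scale) for 2 zones of chromosome 22, chromosome 21 and all 22 autosomes. The dotted line marks 1 kb. Both chromosome 22 curves lie to the left of chromosome 21 (medians 6920 and 6318 against 8281 bp), and the repeat zone has the largest share of gaps up to 1 kb of the 4.

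Neighbouring peaks up to 1 kb apart are here called a run, a string of enrichment that the width of no single peak shows. Chromosome 22 had 226 runs of 2 or more peaks, holding 532 peaks or 31.0% (28.9% to 33.3%), against 21.3% over all autosomes. Shares on other peak-dense autosomes were near this, with 31.3% on chromosome 19, 30.6% on chromosome 16 and 28.2% on chromosome 17. Chromosome 21 had 72 runs with 27.1% of its peaks (23.7% to 30.7%). Of the 226, 167 were pairs, 43 triplets, 12 had 4 peaks and 4 had 5 or more. The median run was 4771 bp long (quartiles 3359 and 6989), and peaks filled 90.7% of the run length. The repeat zone had 43 runs with 33.3% of its peaks (28.2% to 38.8%) and a median length of 5718 bp, and the stretch beyond the lambda locus had 179 runs with 30.7% (28.3% to 33.2%) and a median of 4625 bp. The shares in the 2 zones overlapped within their intervals.

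The longest 3 runs lay near the q end. From 50728703 to 50754009, 25.3 kb held 4 peaks with scores of 2664.37, 80.06, 3100 and 300.8, and the peak at 3100 was the widest of the chromosome, 14577 bp from 50736873 to 50751449. From 50341512 to 50364817, 23306 bp held 4 peaks with scores of 780.89, 132.26, 3100 and 372.9. From 50695139 to 50716043, 20.9 kb held 5 peaks with scores of 3100, 79.41, 1502.76, 208.9 and 339.18. Each of these held 1 peak at the ceiling, 1 other peak over 5 kb wide (5295, 7147 and 6845 bp in that order) and narrower peaks with scores up to 372.9. The fourth, in the repeat zone from 18832220 to 18847614 (15.4 kb), was the pair of wide and weak peaks named above. The fifth ran from 39702368 to 39717237 (14.9 kb, 4 peaks, highest score 2010.66).

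Of the 4 runs of chromosome 22 with 5 or more peaks, the other 3 held no peak of 1000 or more. The only run of 6, from 42807384 to 42817517 (10.1 kb), had scores from 50.64 to 404.81. Runs of 5 from 36756526 to 36769897 (13.4 kb) and from 19884173 to 19894279 (10.1 kb) peaked at 534.02 and 261.91. In 93 of the 226 runs (41.2%) no peak reached 300, against 41.2% of runs over all autosomes and 51.4% on chromosome 21. In 58 (25.7%) the strongest peak scored at least 10 times the weakest, against 25.6% over all autosomes and 16.7% on chromosome 21. Both shares of chromosome 22 were thus near those of the autosomes. Of the 60 ceiling peaks, 24 (40%) were part of a run, the third highest share of the autosomes (median 18.4%, highest 42.99% on chromosome 16), where chromosome 21 had 1 of 26.

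Ceiling peaks were also absent over long stretches. From 42231994 to 45401415, over 3.17 Mb, 227 peaks followed each other without one, and from 47136678 to 50217111, over 3.08 Mb, 84 did. The median distance between neighbouring ceiling peaks was 0.249 Mb. The stretch from 37.5 to 40 Mb, with 96.4 peaks per Mb (84.6 to 109), held 11 of the 60 among its 241 peaks. The steps from 50 to 51 Mb held 8 among 103 peaks. Over the whole chromosome 3.50% of peaks were at the ceiling, so places with many peaks hold more ceiling peaks at a like share.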

How the data were processed

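Per the submitters' processing notes, BWA 0.7.17 and hg19 were used for alignment. The peak names show that MACS called the peaks, whose version and settings are not stated in the file or labels. The deposited score of each peak is the authors' own value, without a stated unit. Of the chromosome 22 peaks, 43 start beyond the last gene of GRCh38, so the 2 builds were not joined, and no sequence was read. The chromosome, its zones, the regions named (densest and sparsest steps, widest peaks, longest runs and gaps) and chromosome 21 as comparison were chosen with earlier results of these data known. The zone boundaries are round positions and were not read from an annotation. Peaks were placed by midpoint. Density runs from first to last peak without gaps over 1 Mb. Intervals are 95% (Poisson, Wilson, or exact binomial for ratios), express counting error alone and assume independent peaks, which neighbours are not. Protein-coding genes came from RefSeq GRCh38.p14, main sequence only, which moved chromosome 22 from 3.80 to 3.90 peaks per gene. Alternatives were score thresholds, joined peaks, moved boundaries, other steps and other gene counts. Functions were tested on simulated peaks. Python 3.11.15, pandas 2.3.3, numpy 2.4.6, scipy 1.17.1 and matplotlib 3.10.9 were used.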

Additional observations from a re-analysis of the deposited data

How the results depend on the processing

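Of 111 alternative values for 26 results, 37 stayed within the counting interval (counts within 1.5 times), 73 moved and 1 reversed. With scores of 100 or more, the upper 50% by score, and peaks joined up to 1 kb, peaks per Mb were 41.2, 29 and 48.6 in the repeat zone and 32.0, 22.6 and 40.6 from the lambda locus on, but their ratio stayed between 1.14 and 1.29 over 6 alternatives and was 1.41 by length covered, an alternative chosen after seeing the data. The lambda locus had 8.99 and 7.87 per Mb (8 and 7 peaks) at the stricter scores, and 30.3 per Mb (27 peaks) with boundaries moved 250 kb towards the q end. Peaks per gene were 2.55, 1.81 and 3.21 on chromosome 22 and 1.66, 1.24 and 2.20 on chromosome 21 in those 3 sets, 1.35 and 0.743 per entry of any kind (ratio 1.81), and 3.28 on chromosome 21 without keratin-associated genes (ratio 1.19). The density ratio of chromosome 22 to 21 was 3.11 with no gap removed and 1.31 in the terminal 10 Mb. Chosen after seeing the data were the terminal 5 Mb, where it turned to 0.709, the rest without them, 3.97, and the extra scaffolds. Runs numbered 111 and 65 at the stricter scores, holding 21.4% and 17.1% of peaks, and 21.6% or 43.8% were in runs with gaps up to 500 bp or 2 kb. For the 3 sets the chromosome 22 median width was 2069, 2471 and 1769 bp, median score 299, 553 and 174, and median gap 11119, 17043 and 9277 bp. The fullest step had 84, 62 and 86 peaks per Mb, at 39.5, 39.5 and 37.5 Mb, and 103 in 1 Mb steps. Steps with up to 6 peaks per Mb made up 4.5 Mb, and 2 Mb in 1 Mb steps. Stricter scores leave fewer peaks by construction; beyond that the cause was not tested. Depth and replicate spread are unknown. No paired analysis was possible because ChIP and input have 1 library each. Gene-based comparisons that need hg19 annotation were not run.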
